A study of Rattus norvegicus with 2 samples.

Results

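The 70 genes described here are the semaphorin, ephrin, Slit and netrin guidance genes of the rat: the secreted and membrane-bound ligands and the receptors that read them. They are the rows whose gene symbol matched a fixed pattern, among the 25399 rows of the deposited gene table. The set was chosen with earlier results of these data known. They comprise 20 semaphorins, 11 plexins and neuropilins, 13 Eph receptors, 8 ephrins, 3 Slits, 4 Robos, 6 netrins and netrin-Gs, and 5 netrin receptors (Dcc and the Unc5 family). Their RNA was counted in single nuclei of the orbitofrontal cortex, a prefrontal area involved in valuing outcomes. The animals were male Sprague-Dawley rats, 8 weeks old, given methamphetamine (METH) at 1 mg/kg or saline by intraperitoneal injection for 7 days as a model of sensitization. The labels name 4 animals per group and 1 library per group, so the animals of a group cannot be separated. There is no replicate library: no test was made, and every interval below is an exact 95% interval for counting error alone.

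Semaphorins signal through plexins, and the secreted class 3 semaphorins do so mostly through neuropilin co-receptors. Ephrins and Eph receptors sit on facing membranes and signal in both directions. Slits bind Robo receptors, secreted netrins bind Dcc and Unc5 receptors, and netrin-Gs are membrane-anchored relatives that bind synaptic adhesion proteins in place of Dcc. In the embryo these systems steer axons and migrating cells. In the adult cortex they are known for roles at synapses, in oligodendrocyte precursors and in vessels.

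The METH library held 5543 barcodes with 44969322 UMIs (unique RNA molecules) and a median of 6401 UMIs per nucleus, and the saline library 6969 barcodes with 42221257 UMIs and a median of 4992. Guidance genes made up 0.807% of the UMIs in the METH library and 0.829% in the saline library. After filters and doublet removal 5160 METH and 6558 saline nuclei were left, and 9 barcode sequences occurred in both libraries. Nuclei were clustered with the guidance genes kept out of the clustering, and clusters were named from marker genes as "X-like" classes, written here without the suffix. Levels are given in CPM, the usual unit that scales a gene's UMIs by all UMIs of that group of nuclei in that library. Transcripts were not scaled by length, so each gene is compared across groups of nuclei and not with other genes. Genes named below that neither peak, nor pass the size rule, nor lead their family in UMIs were chosen after their values were seen.

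Peaks between cell classes lay in the oligodendrocyte lineage. A gene was said to peak in a class where its CPM was at least 2-fold that of the next class in each library and the intervals did not overlap, and that class had to hold 100 or more UMIs of the gene, both libraries added. Of the 70 genes, 59 had enough UMIs to be judged, and 5 of them (8.47%) peaked in a class, against 4.76% of all measured genes. All 5 peaks lay in oligodendrocyte precursors (OPC), in committed precursors (COP, the step between precursor and myelinating cell) or in oligodendrocytes, as the heat map of levels by class shows. COP held 3 of the 5, or 5.08% of the 59 genes, against 0.298% of all measured genes. In all, COP nuclei held 81107 UMIs in METH and 52683 in saline, so only genes at a high level there could reach 100 UMIs. The shares of guidance genes and of all genes were not matched on level. This difference therefore cannot be called particular to guidance genes. OPC and oligodendrocytes held 1 each (1.69%), and the share of all measured genes was not computed for these 2 classes. The remaining 54 judged genes had no peak class, and 11 genes had too few UMIs, among them Robo4 with 1 UMI.

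**Figure D1:**
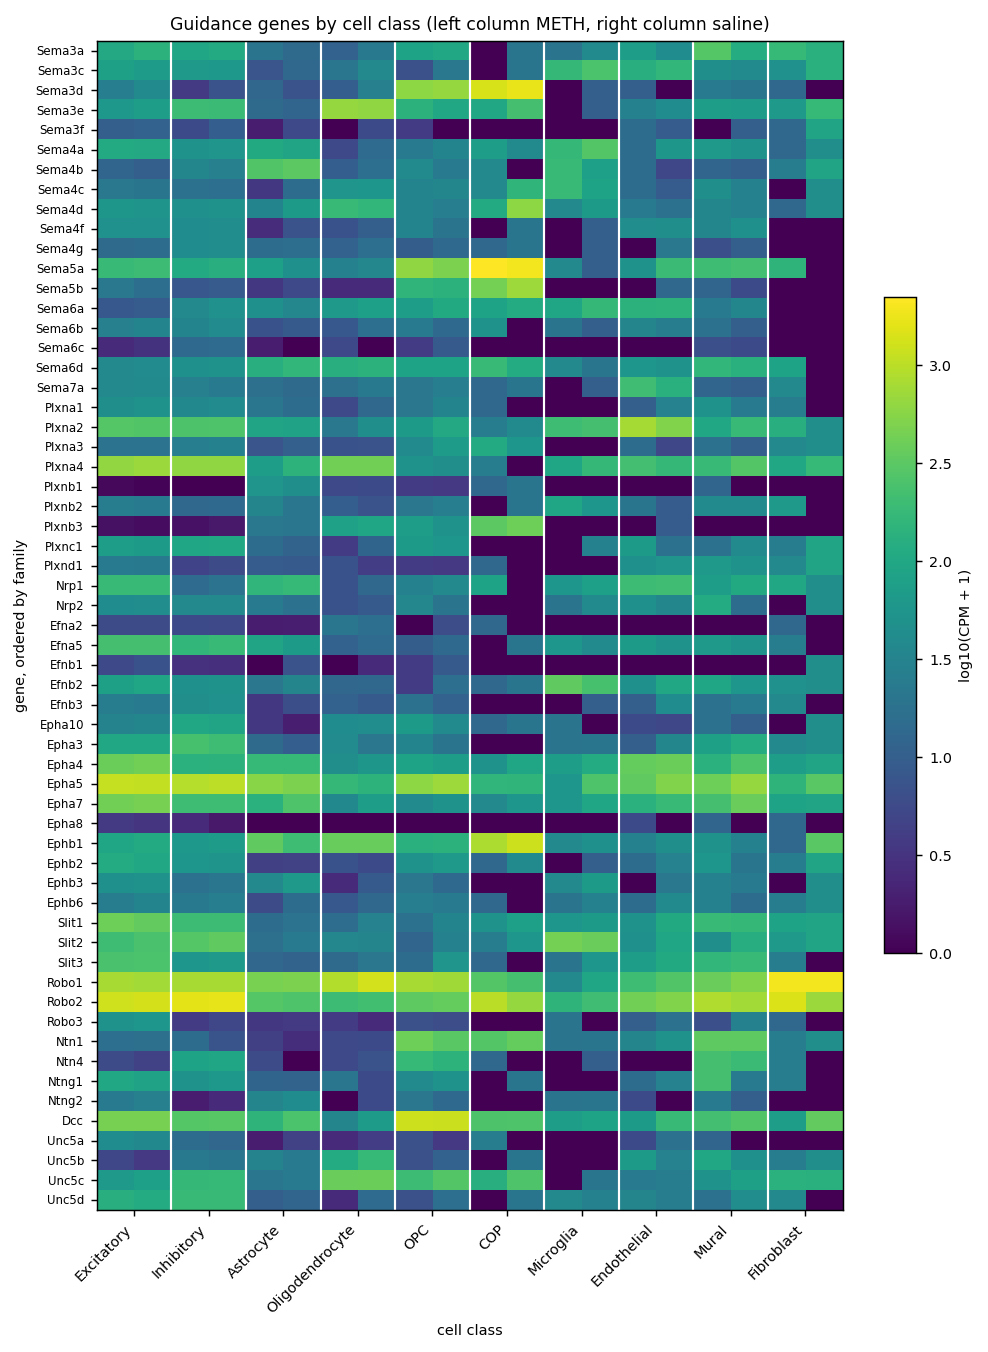
Levels of the 59 guidance genes with enough UMIs in 10 cell classes, as log10(CPM + 1) on a colour scale, with the METH library in the left and the saline library in the right column of each class and genes ordered by family. Sema5a, Sema3d and Ephb1 are brightest in committed precursors (COP), Dcc in precursors (OPC) and Sema3e in oligodendrocytes, in both libraries.

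Among the ligands, Sema5a, a membrane-bound semaphorin with thrombospondin repeats, was at 2219 CPM (1907 to 2568) in METH COP nuclei and at 1955 CPM (1596 to 2371) in saline ones. OPC came next, at 609 CPM (530 to 697) and 486 CPM (419 to 561). The COP intervals lay above those of OPC in both libraries, and mature oligodendrocytes were at 28.2 and 34.1 CPM, so the level was high in the intermediate stage and low after it. Sema3d, a secreted class 3 semaphorin, had the same order, with 1393 CPM (1148 to 1675) and 1727 CPM (1391 to 2121) in COP, 603 and 657 CPM in OPC, and 8.90 and 27.9 CPM in oligodendrocytes. With each nucleus thinned to 1000 UMIs, 79.2% of the METH and 73.7% of the saline COP nuclei held a Sema3d UMI (84.0% and 89.5% unthinned), and 42.9% and 45.7% of the OPC nuclei (65.4% and 63.5% unthinned). Thinned inhibitory nuclei, a class nearly without the gene, gave 0.078% and 0.411% (1.32% and 2.70% unthinned), although their median depth was 6104 and 4379 UMIs against 3102 and 2759 in COP.

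The receptor Ephb1, a tyrosine kinase that binds ephrin-B ligands, was at 863 CPM (673 to 1090) in METH COP and at 1215 CPM (936 to 1551) in saline COP, above oligodendrocytes at 365 and 372 CPM. In OPC Ephb1 was at 131.5 and 140.3 CPM, so unlike Sema5a and Sema3d it was lower before the committed stage than after it. The COP values rest on 25 METH and 19 saline nuclei, and single nuclei held 22.9% and 21.9% of the Ephb1 UMIs and 21.4% of the saline Sema5a UMIs. The class was named from Bcas1, Enpp6 and Tns3: the further marker Gpr17 had 0 UMIs in it and 10 over all barcodes. Oligodendrocyte markers (6 genes) were at 4402 and 6435 CPM in COP and OPC markers (5 genes) at 2219 and 2392 CPM; their part in the result was not tested. With nuclei thinned to 1000 UMIs the 3 COP peaks were lost: the smaller of the 2 libraries' folds over the next class was then 3.9 for Sema5a, 2.51 for Sema3d and 1.97 for Ephb1.

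The RefSeq sequence (build GRCr8) upstream of the COP genes is shown because these genes share a peak that the clustering did not use. Of the 70 genes, 55 matched an entry by symbol. The 250 bases before the start of Sema3d (chr4:23460972-23461221, minus strand) and of Ephb1 (chr8:111823760-111824009, minus strand) are given 5′ to 3′. Sema5a was not among the matched genes. Capitals mark ACAAAG or AACAAT on either strand, letters typical of binding sites of Sox factors, the family that includes the lineage regulator Sox10.
Sema3d: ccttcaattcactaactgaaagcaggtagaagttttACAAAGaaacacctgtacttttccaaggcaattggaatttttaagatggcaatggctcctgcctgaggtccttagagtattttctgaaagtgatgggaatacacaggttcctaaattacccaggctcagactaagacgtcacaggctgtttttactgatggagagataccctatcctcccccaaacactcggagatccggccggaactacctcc
Ephb1: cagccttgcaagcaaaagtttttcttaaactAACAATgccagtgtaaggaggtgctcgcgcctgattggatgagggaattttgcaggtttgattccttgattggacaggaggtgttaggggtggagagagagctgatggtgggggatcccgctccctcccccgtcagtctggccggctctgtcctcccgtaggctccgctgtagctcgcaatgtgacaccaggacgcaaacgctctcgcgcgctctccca
Each window held 1 match, with no overlap between the motifs. Such letters are common: 24.5% of 33469 RefSeq windows of this length held at least 1 match, and 16.1% of the 56 windows of the guidance genes. A match describes these letters and not a binding site.

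Dcc, the netrin receptor that mediates attraction, peaked in OPC, at 1215 CPM (1102 to 1336) in METH and 1187 CPM (1081 to 1301) in saline. Excitatory neurons as a class followed at 456 and 454 CPM, COP at 259 and 266 CPM and oligodendrocytes at 32.6 and 68.1 CPM, so the level was lower at each later stage. Among excitatory neurons, the layer 5/6 near-projecting group described below held Dcc at 1253 and 1323 CPM. The OPC peak thus holds against whole classes only. Without doublet removal the smaller fold of Dcc over the next class was 1.80, and the peak was lost. Its ligand Ntn1 was also high in OPC, at 406 CPM (342 to 479) and 309 CPM (256 to 370), but COP (284 and 361 CPM) and mural cells (326 and 324 CPM) had overlapping intervals. Ntn4, a netrin of basement membranes, was at 174 and 143 CPM in OPC and at 231 and 188 CPM in mural cells, again with overlap.

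Sema3e, a secreted semaphorin that binds Plxnd1, peaked at the end of the lineage. Oligodendrocytes held 659 CPM (599 to 723) in METH and 624 CPM (565 to 688) in saline, while OPC held 140 and 101 CPM. The next class was inhibitory neurons in METH (196 CPM) and COP in saline (228 CPM), below oligodendrocytes in both cases. Among inhibitory neurons, the Lamp5 subclass described below held Sema3e at 587 and 511 CPM, so this peak too holds against whole classes only. With nuclei thinned to 1000 UMIs the Sema3e peak was lost. The repulsive netrin receptor Unc5c was at 384 and 395 CPM in oligodendrocytes and at 194 and 280 CPM in OPC, with intervals that did not overlap but a difference short of 2-fold. Sema5b, the relative of Sema5a, was at 444 and 721 CPM in COP and at 154 and 140 CPM in OPC, and the plexin Plxnb3 at 321 and 399 CPM in COP and 80.1 and 92.9 CPM in oligodendrocytes. Both were highest in COP without reaching 100 UMIs there over both libraries.

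The remaining genes with most UMIs of their family had no peak class, which need not mean an even level across classes. The ligand Sema3a was at 103 CPM in METH and 139 CPM in saline excitatory neurons and at 92.4 and 110 CPM in inhibitory neurons. Sema4a was at 111 and 105 CPM in excitatory neurons and 107 and 89.4 CPM in astrocytes, and Sema6d was higher in astrocytes (129 and 163 CPM) and oligodendrocytes (128 and 142 CPM) than in excitatory neurons (36.3 and 39.8 CPM). Sema7a, a membrane-anchored semaphorin, was at 206 CPM (150 to 277) and 133 CPM (91.2 to 188) in endothelial nuclei and at 37.1 and 38.2 CPM in excitatory neurons. Its endothelial values rest on 44 and 32 UMIs.

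Efna5, an ephrin-A ligand, was at 229 and 227 CPM in excitatory and at 162 and 180 CPM in inhibitory neurons. Efnb2 reached 334 CPM (198 to 528) and 236 CPM (153 to 349) in microglia, from 18 and 25 UMIs, and 78.4 and 93.1 CPM in excitatory neurons. Slit1 was higher in excitatory neurons (405 and 349 CPM) than in inhibitory ones (197 and 194 CPM), with intervals that did not overlap, and fell short of a peak because its fold was 1.80 in saline. The netrin-G Ntng1 was at 99.8 and 84.0 CPM in excitatory and 51.2 and 59.0 CPM in inhibitory neurons.

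Among the receptors, Plxna4, a plexin used by class 3 and class 6 semaphorins, was at 643 and 693 CPM in excitatory neurons, 613 and 616 CPM in inhibitory neurons and 424 and 430 CPM in oligodendrocytes. Epha5, an Eph receptor for ephrin-A ligands, was at 1138 and 1086 CPM in excitatory and 947 and 1037 CPM in inhibitory neurons, but other classes held it too, among them OPC at 598 and 714 CPM, astrocytes at 569 and 483 CPM and mural nuclei at 405 and 662 CPM. Robo2, a Slit receptor, was higher in inhibitory (1620 and 1668 CPM) than in excitatory neurons (1256 and 1359 CPM), in both libraries beyond the counting intervals. The related Robo1 was at 1937 CPM (1647 to 2264) and 1930 CPM (1403 to 2591) in fibroblasts, above oligodendrocytes at 915 and 1307 CPM; the fibroblast values rest on 41 and 16 nuclei. Plxna2 was at 778 CPM (664 to 906) in METH and 516 CPM (430 to 616) in saline endothelial nuclei, above excitatory neurons at 292 and 275 CPM. Sema4b was at 271 and 320 CPM in astrocytes.

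Excitatory neurons were compared across 7 groups. These groups are layer 2/3, 4/5 and 5/6 intratelencephalic (IT) neurons, layer 5 extratelencephalic neurons (L5 ET), which project to the brainstem and other subcortical targets, layer 5/6 near-projecting neurons (L5/6 NP), layer 6 corticothalamic neurons (L6 CT), and a cluster led by Pld5 that also has Rorb among its 10 leading genes and got no name. By the rule used above, 7 of 51 judged genes (13.7%) peaked in 1 of these 7 groups, against 2.94% of all measured genes, and all 7 peaks lay in L5 ET, L5/6 NP or L6 CT. Of these genes, 6 are ligands and 1 is a receptor. The deep L5/6 IT group had 0 peaks. The share of all measured genes peaking in each group was not computed. The deep-layer placement therefore cannot be called particular to guidance genes.

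**Figure D2:**
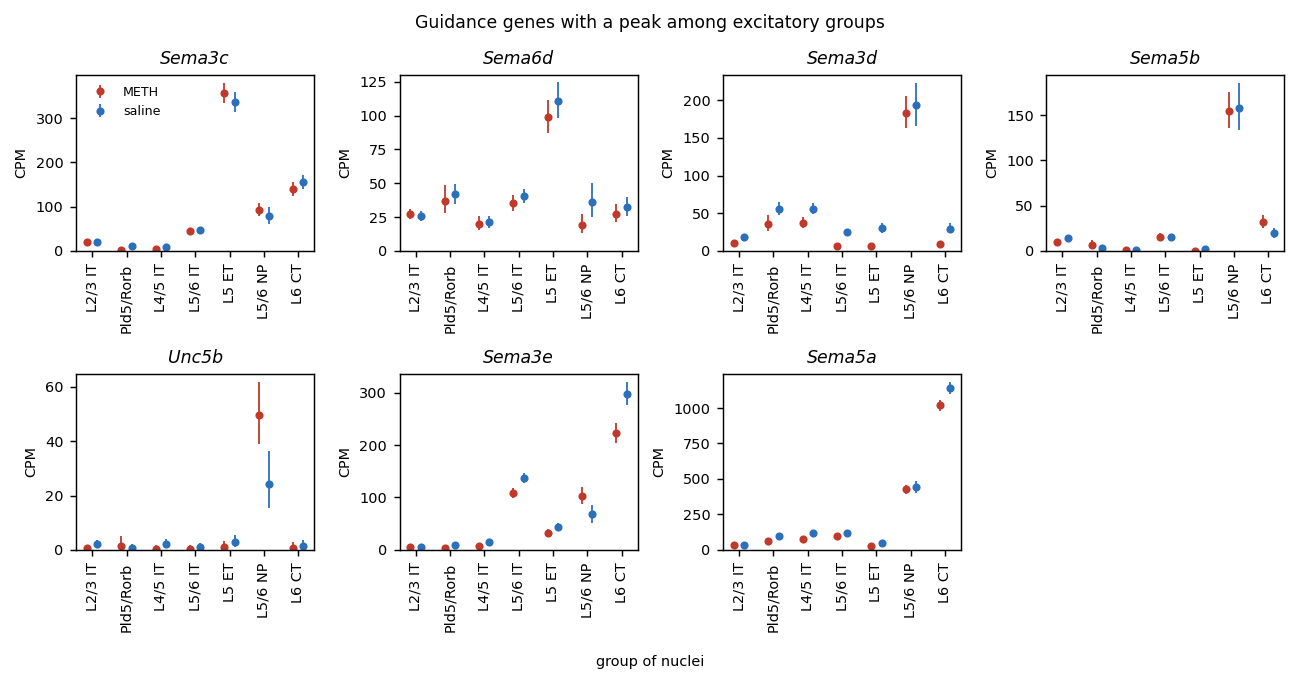
CPM of the 7 guidance genes with a peak among 7 groups of excitatory nuclei, 1 panel per gene with its own linear axis from 0; points are single libraries and bars exact 95% Poisson intervals (counting error only). Sema3c and Sema6d stand out in L5 ET, Sema3d, Sema5b and Unc5b in L5/6 NP, and Sema3e and Sema5a in L6 CT, in both libraries.

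In L5 ET, the secreted ligand Sema3c was at 356 CPM (334 to 379) in METH and 336 CPM (314 to 359) in saline, above L6 CT at 139 and 156 CPM, while L4/5 IT held 4.33 and 8.76 CPM. Sema6d, a transmembrane semaphorin that binds class A plexins, was at 98.9 CPM (87.2 to 112) and 111 CPM (98.7 to 125) in L5 ET and at 37.2 and 41.7 CPM in the next group, the Pld5 cluster. Robo1 was also highest there, at 1586 CPM (1539 to 1635) and 1571 CPM (1523 to 1620), against 808 and 809 CPM in the next group of each library, which is just under the 2-fold rule.

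L5/6 NP neurons carried 2 ligand peaks and a receptor peak. Sema3d was at 183 CPM (163 to 206) and 193 CPM (166 to 223), above L4/5 IT at 37.0 and 55.8 CPM. Sema5b was at 155 CPM (136 to 176) and 158 CPM (134 to 186), and L6 CT came next at 32.1 and 19.4 CPM. The netrin receptor Unc5b was at 49.5 CPM (39.1 to 61.9) in METH and 24.3 CPM (15.4 to 36.4) in saline, from 77 and 23 UMIs, and no other group passed 2.73 CPM. The Unc5b peak rests on exactly the minimum of 100 UMIs, and it was not called without doublet removal (smaller fold 10.7) or with thinned nuclei (5.51). With thinned nuclei the Sema3d and Sema5b peaks were lost too, as were those of Sema6d in L5 ET and Sema3e in L6 CT.

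L5/6 NP also had low levels of several receptors. Epha4, an Eph receptor for both ephrin classes, was at 25.7 and 45.4 CPM there and at 612 and 607 CPM in L4/5 IT. Unc5d was at 1.29 and 4.22 CPM in L5/6 NP, from 2 and 4 UMIs, against 331 and 259 CPM in the Pld5 cluster, 181 and 154 CPM in L2/3 IT and 4.58 and 4.84 CPM in L6 CT. Its relative Unc5c was at 8.36 and 4.22 CPM in the same group. The intervals of L5/6 NP and L6 CT overlapped in both libraries for Unc5d and in METH for Unc5c. Dcc was the reverse: 1253 CPM (1198 to 1310) and 1323 CPM (1251 to 1398) in L5/6 NP, 801 and 733 CPM in L6 CT, and only 97.0 and 62.4 CPM in L5 ET and 98.9 and 126 CPM in L2/3 IT. For Dcc, Unc5b, Unc5c and Unc5d, L5/6 NP nuclei thus combined high levels of the former pair with low levels of the latter in both libraries. The remaining relative Unc5a was at 64.9 and 52.75 CPM in L5/6 NP, 44.5 and 42.9 CPM in L5 ET and 41.65 and 34.6 CPM in L2/3 IT.

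In L6 CT, Sema5a was at 1019 CPM (979 to 1060) and 1142 CPM (1100 to 1185), above L5/6 NP at 426 and 442 CPM and far above L2/3 IT at 32.0 and 32.7 CPM. Sema3e was at 222 CPM (204 to 242) and 299 CPM (278 to 321) in L6 CT and at 109 and 138 CPM in L5/6 IT. The L5/6 IT group is made of 2 clusters that differ in this gene: the one led by Eya1 held 220 and 246 CPM, close to L6 CT, and the one led by Il1rapl2 39.7 and 56.7 CPM. The neuropilin Nrp1, a co-receptor of class 3 semaphorins, was at 428 and 421 CPM in L6 CT, 334 and 368 CPM in L5 ET and 2.81 and 15.6 CPM in the Pld5 cluster. Ntng1 was at 6.25 and 4.84 CPM in L6 CT and at 21.2 and 8.44 CPM in L5/6 NP, with intervals that overlapped in saline, and at 204 and 184 CPM in L5 ET.

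Ligands of the upper layers showed no peak. Sema3a was at 230 and 292 CPM in the Pld5 cluster and 167 and 208 CPM in L2/3 IT, but L6 CT was at 139 and 215 CPM, while L5/6 NP was at 5.14 and 13.7 CPM. The 3 Slits differed in where they were low. Slit1 was lowest in L5 ET (229 and 172 CPM, against 688 and 619 CPM in L5/6 NP). Slit2 was lowest in L6 CT (47.1 and 55.6 CPM, against 474 and 387 CPM in L5/6 NP). Slit3 was low in L5/6 NP (43.1 and 67.5 CPM) and the Pld5 cluster (58.3 and 54.2 CPM), against 321 and 327 CPM in L5/6 IT.

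Interneurons were compared by subclass. By the same rule, 8 of 44 judged genes (18.2%) peaked in 1 of 5 subclasses, named for their marker genes Pvalb, Sst, Vip, Lamp5 and Sncg, against 3.85% of all measured genes. The subclasses held 387 and 388 (Pvalb), 421 and 399 (Sst), 183 and 180 (Vip), 107 and 122 (Lamp5) and 120 and 81 (Sncg) nuclei in METH and saline. Of the 8 genes, 3 are ligands and 5 are receptors or co-receptors.

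**Figure D3:**
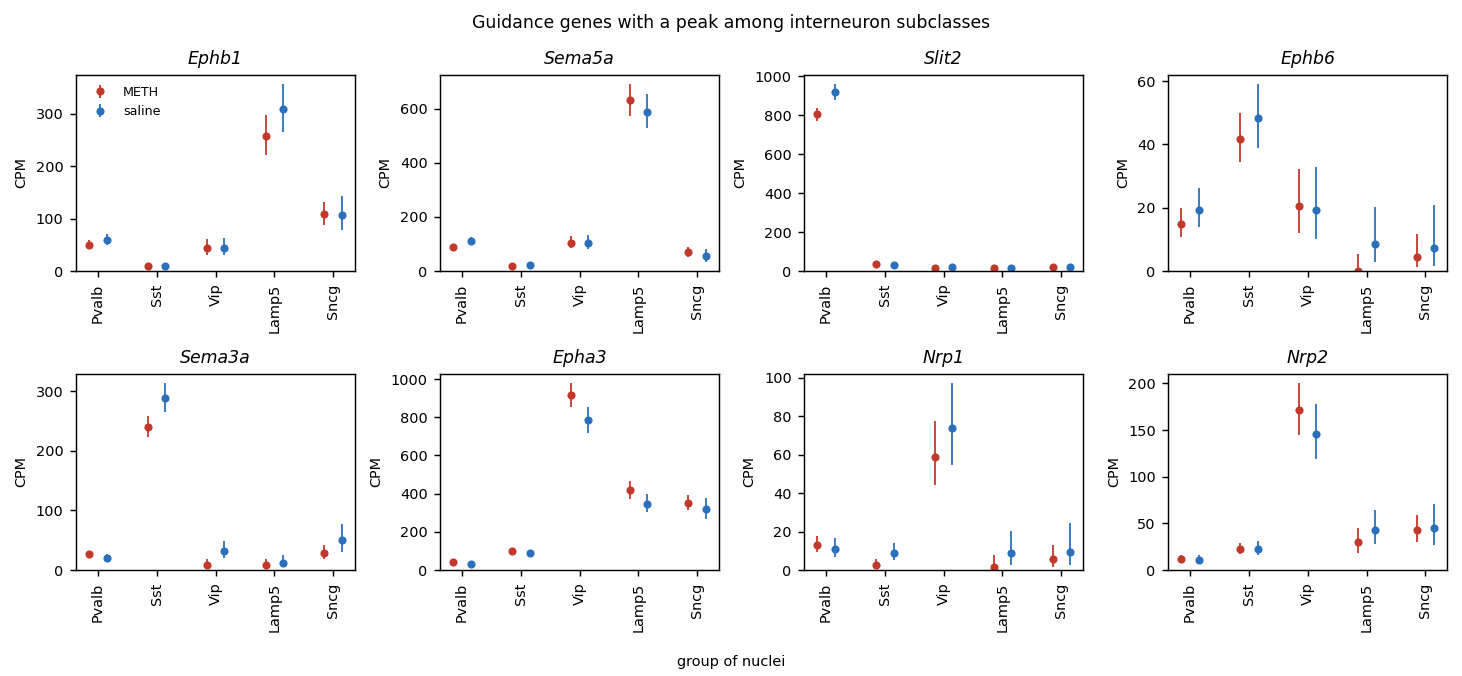
CPM of the 8 guidance genes with a peak among 5 interneuron subclasses, 1 panel per gene with its own linear axis from 0; points are single libraries and bars exact 95% Poisson intervals (counting error only). Slit2 is near 0 outside Pvalb nuclei and Sema3a low outside Sst nuclei, whereas Epha3 grades from Vip through Lamp5 and Sncg to Pvalb.

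Slit2, the secreted Robo ligand, was at 805 CPM (773 to 838) in METH and 920 CPM (879 to 962) in saline Pvalb nuclei, the fast-spiking class that inhibits cell bodies. Sst nuclei came next at 37.6 CPM (30.8 to 45.6) and 32.7 CPM (25.1 to 41.8), a fold of 21.4 in METH and 28.1 in saline. Without doublet removal the smaller fold was 11.1, and with at least 1000 genes per nucleus it was 38.95. Thinned to 1000 UMIs, 196 of 387 METH and 201 of 388 saline Pvalb nuclei held a Slit2 UMI (50.6% and 51.8%; 87.6% and 85.6% unthinned). The same share was 2.38% and 1.76% in Sst nuclei (13.3% and 9.02% unthinned), whose median depth was 6222 and 4459 UMIs against 6779 and 4818.5. Both Pvalb clusters carried the gene, and the one led by Mybpc1 more so, at 1388 and 1508 CPM against 712 and 830 CPM. The receptors were not restricted in this way: Robo1 was at 1857 and 1779 CPM in Lamp5 nuclei and between 590 and 1234 CPM in the other subclasses, and Robo2 at 2089 and 2130 CPM in Sst nuclei and between 1266 and 1548 CPM elsewhere.

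In Sst nuclei, the class that inhibits dendrites, Sema3a was at 240 CPM (222 to 259) and 289 CPM (266 to 314), above Sncg at 28.4 and 50.04 CPM, a smaller fold of 5.78 that was 3.23 without doublet removal. An Sst cluster led by Pard3b held 584 and 671 CPM, and the other Sst clusters of more than 50 nuclei between 123 and 225 CPM. Ephb6, an Eph receptor without kinase activity, was at 41.6 and 48.3 CPM in Sst nuclei and at 20.4 and 19.4 CPM in the next subclass, a smaller fold of 2.04 that fell under the 2-fold rule, to 1.80, with thinned nuclei.

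Vip nuclei carried 3 receptor peaks. Epha3 was at 916 CPM (854 to 981) and 784 CPM (719 to 854), against 418 and 348 CPM in Lamp5 and 42.1 and 31.9 CPM in Pvalb nuclei. The neuropilins Nrp2 (171 and 146 CPM, next Sncg at 43.2 and 45.3 CPM) and Nrp1 (59.0 and 73.9 CPM, next Pvalb at 13.1 and 11.1 CPM) peaked together. Nrp1 rests on 52 and 50 UMIs. Without doublet removal no cluster could be named Vip, and the Vip peaks could not be formed. Thinned to 1000 UMIs, Epha3 was at 1.98-fold over the next subclass in the smaller library, and the Nrp1 and Nrp2 peaks were lost too. In Lamp5 nuclei, Sema5a was at 631 CPM (574 to 692) and 589 CPM (528 to 656), against 104 CPM in Vip (METH) and 110 CPM in Pvalb (saline), and Ephb1 was at 257 CPM (221 to 298) and 309 CPM (265 to 357), against 108 and 107 CPM in Sncg nuclei. The smaller Ephb1 fold over the next subclass was 1.56 with thinned nuclei and 1.5 without doublet removal, short of the rule. By the rule, Sema5a and Ephb1 shared a peak in COP and one among interneurons, but among excitatory groups only Sema5a peaked. With thinned nuclei both Ephb1 peaks and the COP peak of Sema5a were lost. Sema3e was at 587 and 511 CPM in Lamp5 nuclei and at 268 and 257 CPM in the next subclass, just under the 2-fold rule in saline.

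**Figure D4:**
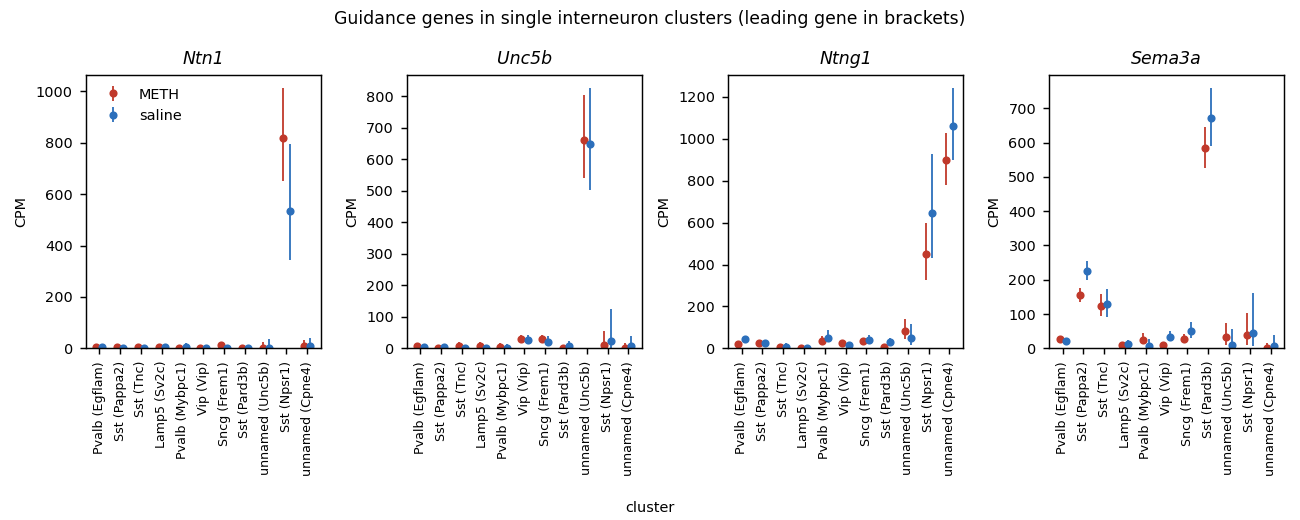
CPM of Ntn1, Unc5b, Ntng1 and Sema3a in the 11 interneuron clusters, labelled by subclass and leading gene; points are single libraries and bars exact 95% Poisson intervals (counting error only), on linear axes from 0. Each gene is high in 1 or 2 small clusters, in both libraries: Ntn1 in the Npsr1 cluster of Sst nuclei, Unc5b in an unnamed cluster, Ntng1 in the Npsr1 and Cpne4 clusters and Sema3a in the Pard3b cluster.

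Several guidance genes marked clusters too small to count as subclasses. Unc5b led a cluster of 25 METH and 17 saline nuclei that also had Vipr2 among its leading genes and was left unnamed: it was at 662 CPM (541 to 803) and 649 CPM (501 to 827) there, from 104 and 65 UMIs. Ntng1 was at 898 CPM (782 to 1027) and 1062 CPM (899 to 1245) in an unnamed cluster of 44 and 34 nuclei led by Cpne4 and with Calb2 among its leading genes. Among Sst nuclei, a cluster of 13 METH and 8 saline nuclei with Npsr1, Nos1 and Tacr1 among its leading genes held Ntn1 at 817 CPM (650 to 1015) and 535 CPM (343 to 796) and Ntng1 at 449 and 647 CPM. In the remaining interneuron clusters Ntn1 did not exceed 11 UMIs in either library.

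Few differences between METH and saline in these genes passed the size rule. Ratios were taken for genes with 100 or more UMIs in a group, both libraries added, that reached 20 CPM in 1 of the libraries. Such a gene was called changed in size when the whole interval of its ratio lay beyond 1.5-fold (0.585 on the log2 scale) in one direction. Of 136 gene and class pairs over 7 classes, 1 was called; of 269 pairs over the excitatory groups, 1; and of 131 pairs over the interneuron subclasses, 1. The plot of ratios by group shows most genes within 1.5-fold. In excitatory neurons 45 genes were measured, with a median log2 METH over saline of -0.04 against -0.01 over all genes, and 0 were called, against 0.322% of all genes. Short of the rule, 13 of the 45 had intervals wholly above 0 and 17 had intervals wholly below it. In L5 ET these numbers were 3 and 16 of 38. Such intervals cover counting error only, and the same counts over all genes are not given here. In inhibitory neurons 41 genes had a median of -0.06 against -0.01, with 30 below 0 and 0 called, against 0.291%. In OPC and oligodendrocytes 11 genes each had medians of 0.03 and -0.04 against -0.00 and -0.12, and 0 were called in either, against 0.0618% and 0.819%. In endothelial and mural nuclei 5 genes each were measured and 0 were called, against 2.74% and 2.1%. Among the groups of excitatory neurons, 0 guidance genes were called in L2/3 IT, L4/5 IT, L5 ET, L5/6 NP, L6 CT and the Pld5 cluster, where 0.327%, 0.267%, 0.301%, 0.139%, 0.393% and 0.0904% of all measured genes were. The same held in the Pvalb, Vip, Lamp5 and Sncg subclasses, against 0.167%, 0.146%, 0.466% and 0.143%. With nuclei of the libraries matched on UMIs, Sema5a in L2/3 IT moved from -0.03 to -1.01 and was called lower in METH, as was Sema3d, and Sema5b in excitatory neurons moved from 0.42 to 0.99 and was called higher.

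**Figure D5:**
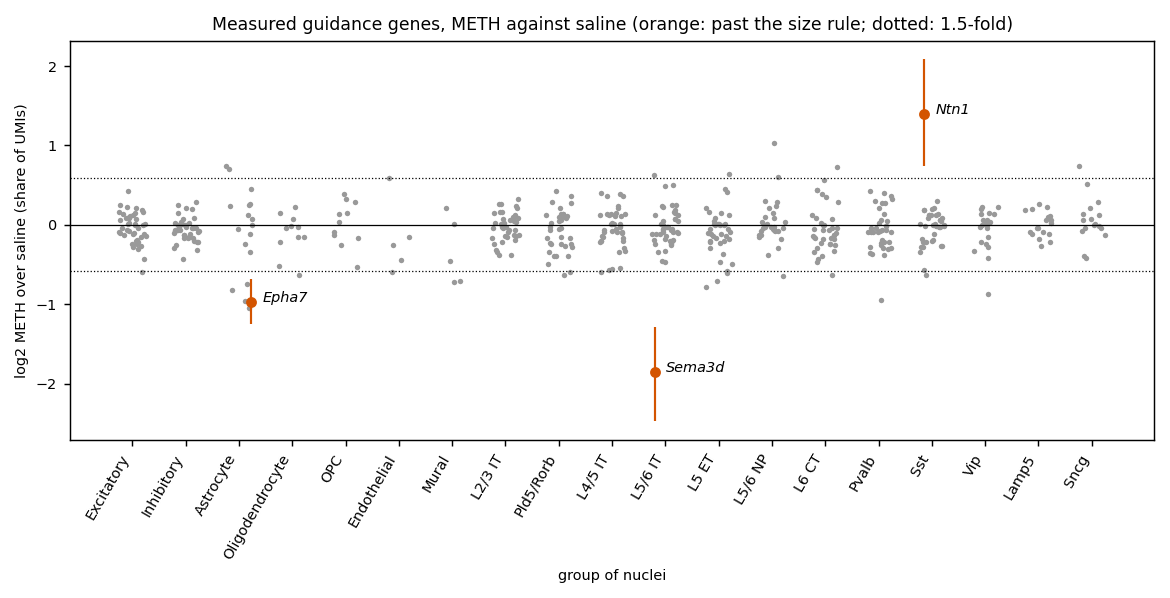
Log2 METH over saline of each measured guidance gene (1 point per gene) in 19 groups of nuclei, with dotted lines at 1.5-fold and horizontal jitter only to separate points. The 3 genes past the size rule are orange with their exact 95% intervals: Epha7 in astrocytes at -0.97, Sema3d in L5/6 IT at -1.86 and Ntn1 in Sst nuclei at 1.39.

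In astrocytes, Epha7, a receptor for ephrin-A ligands, was at 137 CPM (117 to 160; 163 UMIs) in METH and 268 CPM (239 to 300; 303 UMIs) in saline, a log2 ratio of -0.97 (-1.25 to -0.69). It was the only one of 18 measured guidance genes to pass there, where 0.385% of all measured genes passed. The nearest genes short of the rule were Plxna4, at 74.9 and 146 CPM (-0.96, -1.35 to -0.58), and Ephb1, at 335 and 200 CPM (0.74, 0.50 to 0.99). Epha7 was highest in excitatory neurons, at 429.5 and 449.7 CPM. Markers of excitatory neurons were also lower in METH astrocytes: 3 of 3 were lower, at 101 CPM against 157 CPM in sum (-0.63, -0.98 to -0.29). Oligodendrocyte markers were at 175 and 344 CPM (4 of 6 lower) and microglial markers at 32.8 and 68.2 CPM (7 of 8 lower), while inhibitory markers were at 167 and 199 CPM (3 of 6 lower, Dlx6 at 0 UMIs). Their part in the result was not tested. In astrocytes matched between the libraries on UMIs, Epha7 was at -0.86 (-1.18 to -0.54) and no longer passed.

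In L5/6 IT neurons, Sema3d was at 6.79 CPM (4.58 to 9.70; 30 UMIs) in METH and 24.6 CPM (20.8 to 29.0; 143 UMIs) in saline, a log2 ratio of -1.86 (-2.48 to -1.28), 1 of 45 measured genes against 0.213% of all measured genes. Both clusters of the group showed it: 12.4 CPM (7.67 to 18.9) and 39.7 CPM (32.3 to 48.4) in the one led by Eya1, and 3.31 CPM (1.51 to 6.28) and 13.3 CPM (9.64 to 17.8) in the other. Sema3d was also lower in METH in L6 CT (8.75 and 29.4 CPM) and L5 ET (6.42 and 29.7 CPM), with intervals that did not overlap but fewer than 100 UMIs in each group. It was at 9.67 and 17.8 CPM in L2/3 IT, under the 20 CPM minimum, and at 37.0 and 55.8 CPM in L4/5 IT (-0.59, -0.93 to -0.26). In L5/6 NP, its peak group, the intervals overlapped (183 and 193 CPM), as they did in OPC (603 and 657 CPM). OPC markers in L5/6 IT nuclei were at 11.3 and 12.8 CPM in sum (-0.17, -0.72 to 0.37; 3 of 5 lower), whereas microglial markers were at 11.6 and 30.5 CPM (7 of 8 lower); their part in the result was not tested. With each nucleus thinned to 1000 UMIs the gene was no longer measured in L5/6 IT.

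In Sst nuclei, Ntn1, the secreted ligand of Dcc, was at 34.1 CPM (27.6 to 41.6; 95 UMIs) in METH and 13.0 CPM (8.39 to 19.1; 25 UMIs) in saline, a log2 ratio of 1.39 (0.74 to 2.09), 1 of 38 measured genes against 0.384% of all measured genes. This difference rests on the small cluster with Nos1 described above, which held 82 of the 95 METH and 24 of the 25 saline UMIs in 13 and 8 nuclei. Within that cluster the intervals overlapped (650 to 1015 and 343 to 796 CPM). Without it Ntn1 was no longer measured in Sst nuclei, and 0 genes were called in any subclass. A single nucleus held 10.5% of the METH and 24.0% of the saline UMIs. Markers of excitatory neurons were at 40.9 and 81.5 CPM in Sst nuclei (3 of 3 lower) and oligodendrocyte markers at 127 and 194 CPM (6 of 6 lower); their part in the result was not tested.

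Genes that act with the guidance genes were compared in the same way. Of 33 listed co-receptors and partners (among them Neo1, a netrin and repulsive guidance receptor, and Lrrc4c, a netrin-G ligand), 32 were in the gene table and 0 were called in any group. Of 52 listed cytoplasmic effectors 51 were in the table, and 3 gene and group pairs were called, of which 2 are described. Over all measured genes the share called ranged from 0.0618% in OPC to 2.74% in endothelial nuclei. A low number of calls is thus not particular to these lists. Mical2, an actin-oxidising enzyme of a family that acts below plexins, was at 44.5 CPM in METH and 115 CPM in saline oligodendrocytes (-1.36, -2.03 to -0.73; 30 and 74 UMIs), against 0.819% of all measured genes called. Chn2, a Rac inhibitor related to an effector of EphA4, was at 670 and 304 CPM in endothelial nuclei (1.14, 0.72 to 1.57), against 2.74%. In L6 CT the effectors had a median log2 ratio of 0.17 over 43 genes and the guidance genes one of -0.11 over 38, against -0.02 over all measured genes; 0 passed the size rule in either list.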

How the data were processed

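Nuclei of rat orbitofrontal cortex were profiled with a 10x 3′ kit in 2 libraries, 1 METH and 1 saline. The deposited values are UMI counts for each gene and nucleus. Per the file headers, Cell Ranger 7.0.0 wrote them. The submitters' processing notes name hg38, while the gene identifiers are rat; no rat build is named in the sources used here. The filters were a minimum of 500 genes and a maximum of 5% mitochondrial UMIs per nucleus, followed by removal of called doublets. Nuclei were clustered with scanpy 1.11.5 (2000 variable genes without the guidance genes, 30 components, Leiden resolution 1), and excitatory and inhibitory nuclei were clustered again. Names came from marker lists; the naming thresholds were set after cluster markers had been seen. UMIs were summed by library and group, with exact Poisson, binomial and Clopper-Pearson 95% intervals. The intervals cover counting error only. Calculations were tested on simulated data. Genes named by rule were all past the size rule, up to 4 peak genes per group and the gene with most UMIs per family; the other named genes were chosen after their values were seen. The members and lists were chosen with earlier results of these data known. Alternatives included TMM scaling (edgeR 4.0.16 in R 4.3.3), other filters and thinning to 1000 UMIs. The result of 1 called effector gene is not reported here.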

Additional observations from a re-analysis of the deposited data

Results flagged for a closer look

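In clusters that got no class name, 3 values lay above the interval of each named class in the same library. In the METH nuclei of a cluster led by Trdn, with Pbx3 and Meis1 among its leading genes, Epha5 was at 1760 CPM (1636 to 1891), against 1138 CPM in excitatory neurons, the highest named class. Epha3 was at 564 CPM (494 to 640.1) in the same nuclei, against 234 CPM in inhibitory neurons. These comparisons are with whole classes, and groups within a class lay nearer or higher. METH Vip nuclei held Epha3 at 916 CPM, above the Trdn cluster, and METH L5/6 NP nuclei held Epha5 at 1417 CPM. The Trdn cluster held 122 METH and 2 saline nuclei, so it belongs almost wholly to 1 library and the saline level cannot be given. Robo2 was at 2540 CPM (2430 to 2654) in the METH nuclei of a cluster led by Ndst4, against 1620 CPM in inhibitory neurons. Of the inhibitory neurons, METH Sst nuclei held Robo2 at 2089 CPM. The Ndst4 cluster held 182 METH and 81 saline nuclei, and Robo2 was at 1104 CPM in the saline ones.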

How the results depend on the processing

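With 1 library per group, depth and the number of nuclei set the counting error, and spread between animals is not measured. No paired analysis was possible because the groups share only replicate number 1. The 1 call among classes became 2 with at least 200 genes per nucleus, with TMM scaling, with nuclei matched on UMIs and without the highest nucleus, 3 with nuclei weighted alike and 6 when 30 UMIs sufficed and the CPM minimum was dropped. The 1 call among excitatory groups became 5 with at least 30 UMIs, 3 with matched and 0 with thinned nuclei. The 1 call among interneuron subclasses became 3 with at least 30 UMIs, and 0 with matched nuclei, with thinned nuclei and without the Nos1 cluster, an alternative chosen after seeing the data. Epha7 in astrocytes lay between -1.10 and -0.86 and kept its call in 14 of 15 alternatives. Sema3d in L5/6 IT lay between -2.02 and -1.49 and kept it in the 14 alternatives that measured it. The 5 class peaks became 9 with at least 1000 genes, 8 at a 1.5-fold and 1 at a 3-fold rule. With thinned nuclei the class peaks of Sema5a, Sema3d, Ephb1 and Sema3e were lost, and that of Dcc was kept. The 7 excitatory peaks became 2 with thinned nuclei, 14 at 1.5-fold and 3 at 3-fold. The 8 subclass peaks became 4 with thinned nuclei, 14 at 1.5-fold and 5 at 3-fold. Thinning leaves fewer UMIs by construction, and several genes then fall under the minimum of 100 UMIs. Of the values for single genes, 184 stayed called or stayed uncalled, 8 gained a call, 18 lost one and 0 reversed. The cause of the other changes was not tested.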
